A study of Mus musculus with 6 samples.

Results

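The collagen gene family was described in sciatic nerves of 25-day-old mice. Its members were all rows of the expression table whose gene symbol is Col, a number, a and a number, which gave 44 genes of the 20239 named on the array. They comprised 11 fibrillar chains, 6 chains of the basement membrane type IV network, 6 beaded-filament chains of type VI, 9 FACIT chains (collagens that sit on the surface of fibrils) and 12 others. The 3 mutant mice had the genotype DhhCre::Sip1 flox/flox and the 3 control mice Sip1 flox/flox, so that both groups carried the floxed alleles of Sip1, the gene now called Zeb2. Dhh-driven Cre recombines in the Schwann cell lineage, and it is also known to mark fibroblasts of the endoneurium. Total RNA of each nerve was measured on 1 Affymetrix whole-transcript array, and precision is limited by having 3 arrays a group. The labels call the samples biological replicates. Sex was read from Xist, and it was not balanced between the groups. Mutant 3 (12.13), control 1 (11.95) and control 2 (11.90) were read as female. Mutant 1 (5.53), mutant 2 (5.62) and control 3 (5.44) were read as male.

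Collagens are built from 3 polypeptide chains that wind into a triple helix. Fibrillar collagens form the tensile fibres of the endoneurium and epineurium, FACIT and beaded collagens connect those fibres to each other and to cells, and type IV forms the sheet of the basement membrane around each Schwann cell, perineurial cell and vessel. In nerve, fibroblasts, perineurial cells, Schwann cells and vessel cells all make collagens, and the basement membrane is needed for axon sorting and myelination. Zeb2 is a zinc finger repressor, and ZEB proteins are known to bind DNA at E-box sequences with the core CACCT.

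Zeb2 itself stood at 10.96, 10.66 and 11.01 in the mutant nerves and 11.67, 11.57 and 12.02 in the control nerves on the log2 scale, a difference of −0.88 (SE 0.15, limma adjusted p = 0.0137, and 0.0522 without mutant 1). Array medians ran from 8.02 to 8.11. Skeletal muscle markers varied between samples of both groups, and the mean log2 value of 18 of them was 7.5 in mutant 1, 12.54 in mutant 2 and 9.92 in mutant 3, against 7.56 in control 1, 12.84 in control 2 and 10.23 in control 3. Mutant 2, the muscle-rich mutant, had the lowest of the 3 mutant values for 29 of the 44 collagens, against 40.6% of all genes. The same held for 17 of 17 collagens whose mean reached 10 in either group, a set picked by level. Control 2, the muscle-rich control, had the lowest control value for 25 of the 44 collagens and for 10 of those 17, against 7868 of 20239 genes. Low mutant 2 values were not particular to collagens. In lists below, mutant 2 was the lowest mutant for 18 of 19 modification, 13 of 14 cleavage and 12 of 12 receptor genes. So it was for 15 of 17 fibroblast, 9 of 10 macrophage, 8 of 9 Schwann cell and 5 of 6 tendon markers. Every other list had a smaller share than the collagens. Examples were collagenases (4 of 7), perineurial markers (6 of 10) and cartilage markers (2 of 14). A link of these low values to muscle content was not tested. Collagen calls that changed without mutant 2 and control 2 are given with and without them. Nerves are mixtures of cells, so fewer cells of a type and less RNA per cell cannot be told apart.

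In the mutant nerves 9 collagens rose and 2 fell, while 33 did not pass the test (limma, Benjamini-Hochberg adjusted p under 0.05 over all genes). The 9 that rose were Col11a1, Col12a1, Col18a1, Col8a1, Col25a1, Col9a3, Col6a1, Col4a3 and Col4a4, and the 2 that fell were Col23a1 and Col14a1. The 11 were 25.0% of the family, where 9.62% of all genes passed. By direction, 20.5% of the family rose against 5.74% of all genes, and 4.55% fell against 3.89% of all genes. These shares of all genes include many genes with low values. Without the lowest 50% of genes, 1132 of 10120 genes rose and 745 fell, against 9 and 2 of 36 collagens. A rise of at least 2-fold was found for 4 collagens, 9.09% of the family against 1.67% of all genes, and no collagen fell by as much. The median difference of the family was 0.14 on the log2 scale, against −0.02 over all genes.

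**Figure D1:**
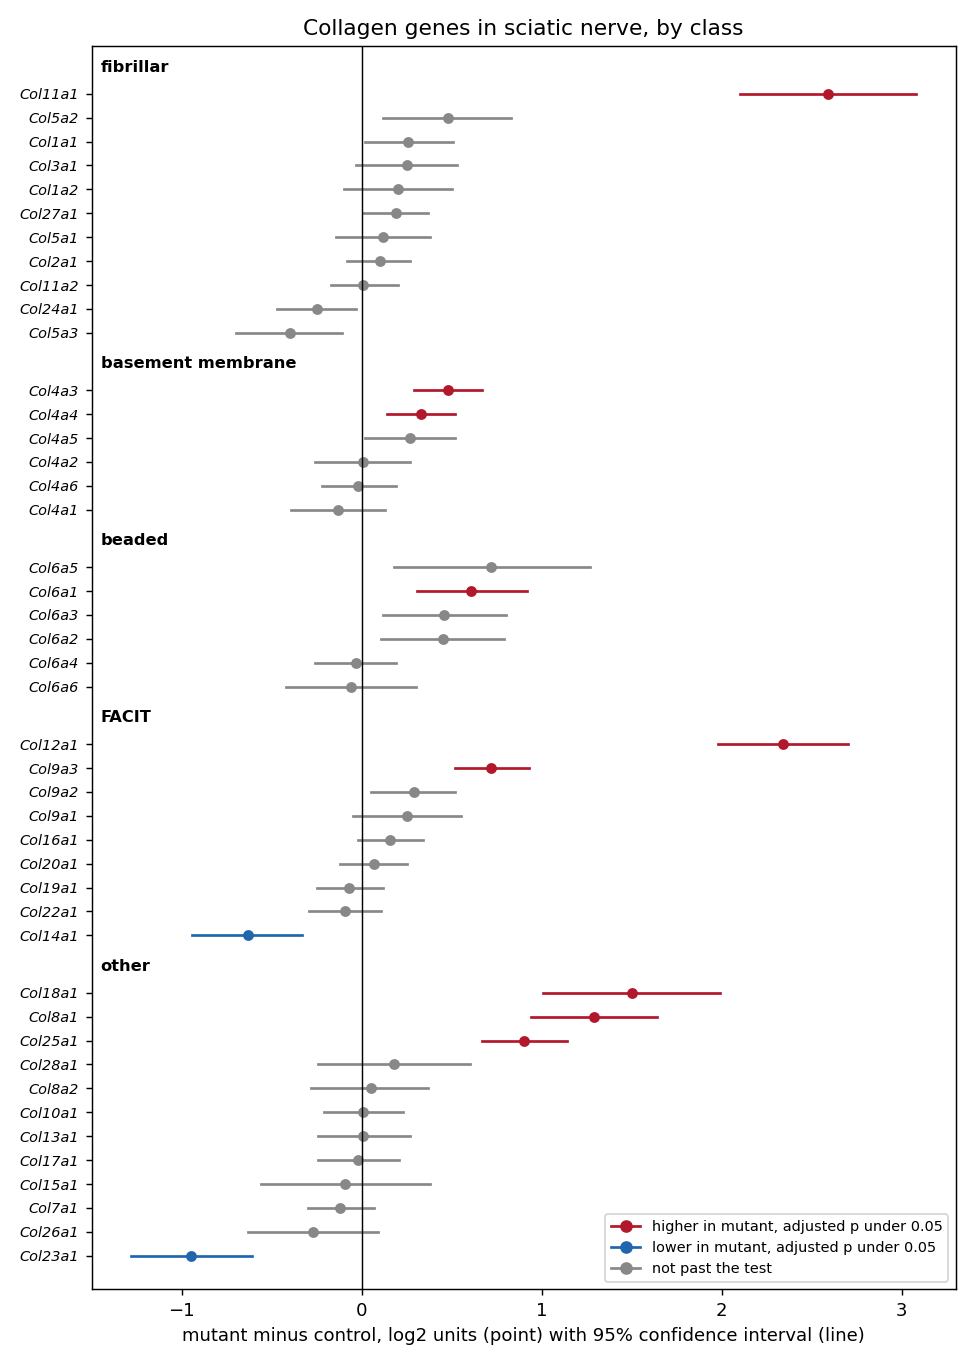
Difference between mutant and control nerves in log2 units (x axis) for each of the 44 collagen genes, grouped by class. Points are differences of group means of 3 arrays each and lines are 95% confidence intervals. Col11a1 (2.59) and Col12a1 (2.34) lie farthest to the right and Col23a1 (−0.95) farthest to the left.

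Without any test, the 3 mutant arrays lay above the 3 control arrays for 20 collagens (45.5%, against 16.3% of all genes) and below them for 5 (11.4%, against 11.8% of all genes). Of those 25, 14 did not pass the test. They were Col1a1, Col2a1, Col5a2, Col27a1, Col4a5, Col6a2, Col6a3, Col6a5, Col9a2, Col16a1 and Col20a1 above, and Col5a3, Col7a1 and Col24a1 below. Both group means of 7 members (Col4a6, Col6a4, Col10a1, Col17a1, Col19a1, Col20a1 and Col22a1) lay under the lowest array median. No detection calls were used, so such low values may be background, and none of the 7 passed.

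**Figure D2:**
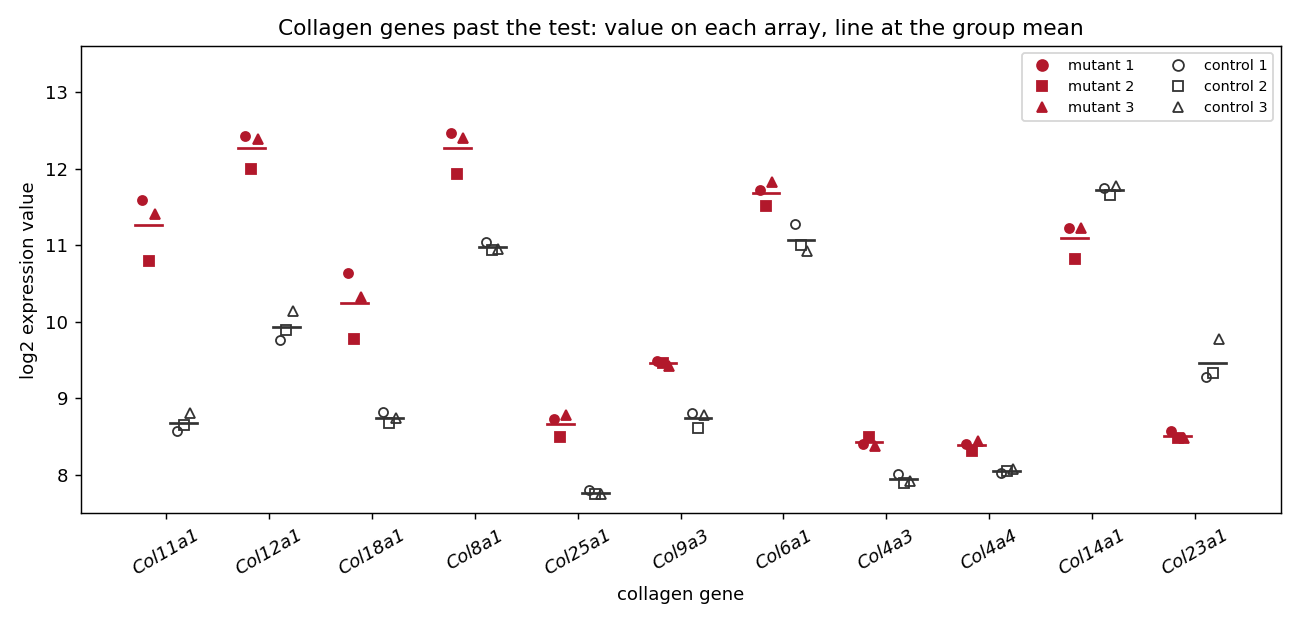
Log2 expression value (y axis) of the 11 collagen genes past the test, with 1 symbol per array and a line at each group mean. In each of the 11 the mutant and control arrays do not overlap, and the filled squares of mutant 2 lie below the other mutants for all but Col9a3, Col4a3 and Col23a1.

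The fibrillar class held the largest rise of the family and otherwise only small differences. Col11a1, a minor fibrillar chain that nucleates thin fibrils in cartilage and other tissues, had values of 11.59, 10.79 and 11.41 in the mutant nerves and 8.57, 8.65 and 8.81 in the control nerves. Every mutant array was far above every control array, with mutant 2 the lowest of the mutants. The difference was 2.59 on the log2 scale, or 6.01-fold (SE 0.21, 95% confidence interval 2.10 to 3.08, limma adjusted p = 0.000845). Col11a2, its partner chain in cartilage trimers, stood at 8.55, 8.57 and 8.51 in the mutant nerves and 8.59, 8.47 and 8.52 in the control nerves. The groups of Col11a2 overlapped, and its difference was 0.01 with an interval of −0.17 to 0.20 (adjusted p = 0.940). Whether the 2 partners differ from each other in their change was not tested, but their intervals do not overlap.

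Among the abundant fibre-forming chains no difference passed. Col1a1 and Col1a2, the chains of type I collagen, differed by 0.26 (95% confidence interval 0.02 to 0.51, adjusted p = 0.196) and 0.20 (−0.10 to 0.50, adjusted p = 0.421). Col1a1 was 13.38, 13.08 and 13.33 in the mutant nerves against 13.07, 12.95 and 12.98 in the control nerves, and the mutant 2 value exceeded the highest control by very little. Col3a1, which co-assembles with type I, differed by 0.25 (−0.03 to 0.53, adjusted p = 0.277). All 3 intervals end well under a 2-fold difference.

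The 3 chains of type V collagen, which sits inside type I fibrils and limits their width, had differences of both signs, none of which passed. Col5a2 was 10.16, 9.69 and 10.22 in the mutant nerves and 9.49, 9.52 and 9.63 in the control nerves, a difference of 0.48 (SE 0.15, adjusted p = 0.109). The groups did not overlap, but mutant 2 lay close to the controls. Without mutant 2 the difference of Col5a2 was 0.64 (adjusted p = 0.0119), and without mutant 2 and control 2 it was 0.63 (adjusted p = 0.0396). Over all 19 alternatives its adjusted p ran from 0.0119 to 0.345. Col5a3, the type V chain known from cultured Schwann cells of the rat, was 9.72, 9.44 and 9.49 in the mutant nerves and 9.87, 9.84 and 10.16 in the control nerves. All mutant values of Col5a3 were below all control values, and the difference of −0.40 (SE 0.12) had an adjusted p of 0.1. Col5a1 differed by 0.12 (adjusted p = 0.596). The remaining fibrillar chains, Col2a1, Col24a1 and Col27a1, differed by 0.10, −0.25 and 0.19, and none passed.

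The RefSeq promoter window of Col11a1, from 250 bases before to 50 after the annotated start, is shown because it belongs to the gene with the largest rise. It spans chr3:114030290-114030589 on the plus strand of GRCm38.p6. Capitals would mark the letters CACCT on either strand (AGGTG when read on the other strand), and none stand in this window.
Col11a1: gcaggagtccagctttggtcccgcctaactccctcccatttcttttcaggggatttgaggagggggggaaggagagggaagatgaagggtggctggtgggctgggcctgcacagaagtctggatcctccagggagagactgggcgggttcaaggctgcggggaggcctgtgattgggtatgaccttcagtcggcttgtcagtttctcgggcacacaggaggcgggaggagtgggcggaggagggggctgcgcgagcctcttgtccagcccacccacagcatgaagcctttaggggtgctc

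Of the 6 basement membrane chains 2 rose, both by less than 2-fold. Col4a3, whose product forms a specialised type IV network with those of Col4a4 and Col4a5 in kidney, lung, eye and ear, was 8.40, 8.50 and 8.38 in the mutant nerves and 8.01, 7.90 and 7.93 in the control nerves. The difference was 0.48, or 1.39-fold (SE 0.081, adjusted p = 0.0128). Col4a4 was 8.40, 8.31 and 8.45 in the mutant nerves and 8.03, 8.05 and 8.08 in the control nerves, a difference of 0.33 (SE 0.079, adjusted p = 0.045). Neither gene's groups overlapped, and the spread within each group was small. Col4a5, the other chain of that network, differed by 0.27 (95% confidence interval 0.02 to 0.52, adjusted p = 0.191). Control values of both genes lay close to the array medians.

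The size of both differences changed little between alternatives, at 0.42 to 0.51 for Col4a3 and 0.28 to 0.37 for Col4a4 over all 19, but the calls did not hold in each. The rise of Col4a3 was lost when mutant 1 (adjusted p = 0.064), mutant 3 (0.0533), control 2 (0.0502) or the muscle-rich pair (0.0852) was left out, and it passed in the other 15 alternatives, with an adjusted p from 0.00401 to 0.0852 over all of them. Col4a4 passed in 8 of the 19, with an adjusted p from 0.0132 to 0.196. Its adjusted p was 0.0948 when same-numbered samples were blocked, 0.109 without mutant 2 and control 2, 0.19 without mutant 1, 0.196 without mutant 3, and 0.0936, 0.121 and 0.0856 without controls 1, 2 and 3. It was 0.0584 and 0.102 after rescaling, 0.098 with sex as a covariate and 0.0833 with muscle markers as one.

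Col4a1 and Col4a2 encode the chains of the type IV network found in nearly every basement membrane, and neither passed. Col4a1 was 10.75, 10.44 and 10.66 in the mutant nerves and 10.75, 10.64 and 10.85 in the control nerves, a difference of −0.13 (95% confidence interval −0.39 to 0.13, adjusted p = 0.566). Col4a2 was 10.98, 10.64 and 10.87 in the mutant nerves and 10.87, 10.71 and 10.89 in the control nerves, a difference of 0.01 (−0.26 to 0.27, adjusted p = 0.984). In both genes mutant 2 was the lowest array and the groups overlapped. Col4a6 differed by −0.02 (adjusted p = 0.938) at values near background.

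The type IV genes lie in head-to-head pairs with no protein-coding gene between the partners, Col4a1 with Col4a2, Col4a3 with Col4a4 and Col4a5 with Col4a6. Differences within a pair were −0.13 and 0.01, 0.48 and 0.33, and 0.27 and −0.02, in that order. The windows of Col4a4 and Col4a2 are shown as promoter sequence of a pair that rose and of a pair that did not pass. The Col4a4 window spans chr1:82586800-82587099 on the minus strand and the Col4a2 window chr8:11312555-11312854 on the plus strand of GRCm38.p6, and the Col4a2 window shares 78 bases with the window of Col4a1. Capitals mark CACCT on either strand, which begins at positions −168 and −54 from the start in the Col4a4 window and at −130 in the Col4a2 window.
Col4a4: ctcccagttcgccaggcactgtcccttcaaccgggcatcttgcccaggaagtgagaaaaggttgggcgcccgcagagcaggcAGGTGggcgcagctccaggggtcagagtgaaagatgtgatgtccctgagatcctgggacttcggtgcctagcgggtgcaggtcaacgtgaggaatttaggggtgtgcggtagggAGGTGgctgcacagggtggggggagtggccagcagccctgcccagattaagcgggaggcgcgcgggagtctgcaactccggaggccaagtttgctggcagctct
Col4a2: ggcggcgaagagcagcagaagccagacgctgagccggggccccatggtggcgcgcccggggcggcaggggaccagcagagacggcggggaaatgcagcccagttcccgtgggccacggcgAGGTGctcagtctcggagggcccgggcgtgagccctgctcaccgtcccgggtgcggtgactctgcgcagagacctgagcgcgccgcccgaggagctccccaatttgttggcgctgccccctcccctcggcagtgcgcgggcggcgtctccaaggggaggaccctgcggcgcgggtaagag

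The beaded-filament chains of type VI collagen, which anchor cells and basement membranes in the surrounding matrix, had the highest class median, 0.45. Col6a1 was 11.72, 11.51 and 11.82 in the mutant nerves and 11.28, 11.00 and 10.92 in the control nerves. All mutant values were above all control values, and the difference was 0.61, or 1.53-fold (SE 0.13, adjusted p = 0.0291). Col6a2 and Col6a3, the partner chains of the same trimer, differed by 0.45 (95% confidence interval 0.11 to 0.79, adjusted p = 0.114) and 0.46 (0.12 to 0.80, adjusted p = 0.106). The groups did not overlap in either partner, and the intervals of all 3 chains cover each other's values. The rise of Col6a1 was lost when mutant 1 (0.122), mutant 3 (0.125), control 2 (0.0917), control 3 (0.0769) or the muscle-rich pair (0.0794) was left out, within a range of 0.0038 to 0.125 over the 19 alternatives. Col6a3 passed without control 1 (0.0428) and after adjusting for adipocyte markers (0.0287), and its adjusted p ran from 0.0165 to 0.318.

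The other type VI chains are encoded by 3 neighbouring genes, and none of them passed. Col6a5, an alternative chain to Col6a3 in type VI trimers, was 10, 9.36 and 10.33 in the mutant nerves and 9.16, 9.16 and 9.20 in the control nerves. The control arrays were nearly identical and the mutants widely spread, and the difference of 0.72 (SE 0.23) had an adjusted p of 0.112. Without mutant 2 it was 0.99 (adjusted p = 0.00786), and without mutant 2 and control 2 it was 0.99 (0.0284). Over the 19 alternatives the adjusted p of Col6a5 ran from 0.00786 to 0.323. Its neighbours Col6a4 and Col6a6 differed by −0.03 (95% confidence interval −0.26 to 0.19, adjusted p = 0.870) and −0.06 (−0.42 to 0.30, adjusted p = 0.858). These intervals overlap that of Col6a5 (0.18 to 1.27), and the difference between the 3 genes was not tested.

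In the FACIT class the closely related genes Col12a1 and Col14a1 moved in opposite directions. Col12a1, a large FACIT of dense connective tissue such as tendon sheaths and fascia, had values of 12.43, 12.00 and 12.38 in the mutant nerves and 9.76, 9.89 and 10.14 in the control nerves. The difference was 2.34, or 5.06-fold (SE 0.15, 95% confidence interval 1.98 to 2.70, adjusted p = 0.000393), the smallest p of the family. Col14a1, the FACIT most like it in domain structure, had values of 11.23, 10.82 and 11.22 in the mutant nerves and 11.75, 11.65 and 11.77 in the control nerves. It fell by 0.63 on the log2 scale (SE 0.13, 95% confidence interval −0.94 to −0.33, adjusted p = 0.0261), with every mutant array below every control array and mutant 2 the lowest. The fall of Col14a1 was lost when mutant 1 (adjusted p = 0.0602), mutant 3 (0.0645), control 1 (0.0693), control 2 (0.0606) or control 3 (0.0718) was left out, and with sex as a covariate (0.0675), and its range over the 19 alternatives was 0.0162 to 0.0718. Col12a1 passed in all 19, with a difference between 2.25 and 2.47.

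Type IX collagen decorates the type II fibrils of cartilage and the vitreous, and 1 of its 3 chains passed. Col9a3 was 9.49, 9.46 and 9.43 in the mutant nerves and 8.81, 8.61 and 8.79 in the control nerves. The mutant arrays were almost equal to each other, mutant 2 included, and the difference was 0.72, or 1.65-fold (SE 0.087, adjusted p = 0.0037). Its partner chains Col9a2 (0.29, 95% confidence interval 0.05 to 0.52, adjusted p = 0.143) and Col9a1 (0.25, −0.05 to 0.55, adjusted p = 0.321) did not pass. Col2a1, the chain of the fibrils that type IX decorates, stood at 8.81, 8.83 and 8.76 in the mutant nerves and 8.69, 8.71 and 8.71 in the control nerves, a difference of 0.10 (adjusted p = 0.514). The FACIT chains Col16a1, Col19a1, Col20a1 and Col22a1 differed by −0.09 to 0.16.

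Outside these classes, Col18a1 and Col8a1 rose by more than 2-fold. Col18a1, a proteoglycan collagen of basement membranes and the source of the fragment endostatin, was 10.64, 9.78 and 10.32 in the mutant nerves and 8.83, 8.68 and 8.74 in the control nerves. The lowest mutant, mutant 2, was still well above the highest control, and the difference was 1.5, or 2.82-fold (SE 0.21, 95% confidence interval 1.01 to 1.99, adjusted p = 0.00615). Col15a1, its closest relative and a collagen of the nerve's basement membrane zone, had values of 12.34, 11.58 and 12.21 in the mutant nerves and 12.14, 12.03 and 12.24 in the control nerves. The groups overlapped, with mutant 2 lowest of all arrays, and the difference was −0.09 (95% confidence interval −0.56 to 0.38, adjusted p = 0.829).

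Col8a1, a short-chain collagen that forms hexagonal networks in vessel walls and the cornea, was 12.47, 11.93 and 12.40 in the mutant nerves and 11.04, 10.94 and 10.95 in the control nerves. The difference was 1.29, or 2.45-fold (SE 0.15, 95% confidence interval 0.94 to 1.64, adjusted p = 0.00312). Col8a2, the other type VIII chain, differed by 0.05 (95% confidence interval −0.28 to 0.37, adjusted p = 0.880), and its groups overlapped. The promoter window of Col8a1 is shown because it belongs to a gene that rose and holds CACCT at 2 places close to the start, at −44 and −18, the nearer one followed by G. It spans chr16:57754688-57754987 on the minus strand of GRCm38.p6, with capitals again marking CACCT on either strand.
Col8a1: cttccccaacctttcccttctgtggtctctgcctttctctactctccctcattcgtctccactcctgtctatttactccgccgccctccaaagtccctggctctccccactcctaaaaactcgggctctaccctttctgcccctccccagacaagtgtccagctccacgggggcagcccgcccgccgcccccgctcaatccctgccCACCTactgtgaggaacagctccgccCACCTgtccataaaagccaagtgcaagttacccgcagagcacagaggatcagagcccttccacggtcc

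The transmembrane collagens, whose outer part can be shed from the cell surface, went both ways. Col25a1, known from neurons and from muscle during innervation, was 8.73, 8.50 and 8.79 in the mutant nerves and 7.81, 7.76 and 7.75 in the control nerves. Its control values lay under the array medians, and it rose by 0.90, or 1.87-fold (SE 0.099, adjusted p = 0.00269). Col23a1 was 8.57, 8.49 and 8.48 in the mutant nerves and 9.28, 9.33 and 9.77 in the control nerves. It fell by 0.95 on the log2 scale (SE 0.14, 95% confidence interval −1.28 to −0.61, adjusted p = 0.00796), the largest fall of the family, and its 3 mutant values were nearly equal. Col13a1 (0.01) and Col17a1 (−0.02), the other members of this type, did not pass.

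Col28a1, a collagen known almost only from the basement membranes of peripheral nerve glia, did not differ detectably, at 10.07, 9.56 and 9.70 in the mutant nerves and 9.38, 9.54 and 9.88 in the control nerves. The groups overlapped, and the interval of the difference ran from −0.24 to 0.60 (adjusted p = 0.622). Col26a1 stood at −0.27 (95% confidence interval −0.63 to 0.09, adjusted p = 0.360). Col7a1, the anchoring fibril collagen of skin, and Col10a1, that of growth plate cartilage, differed by −0.12 and 0.01.

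**Figure D3:**
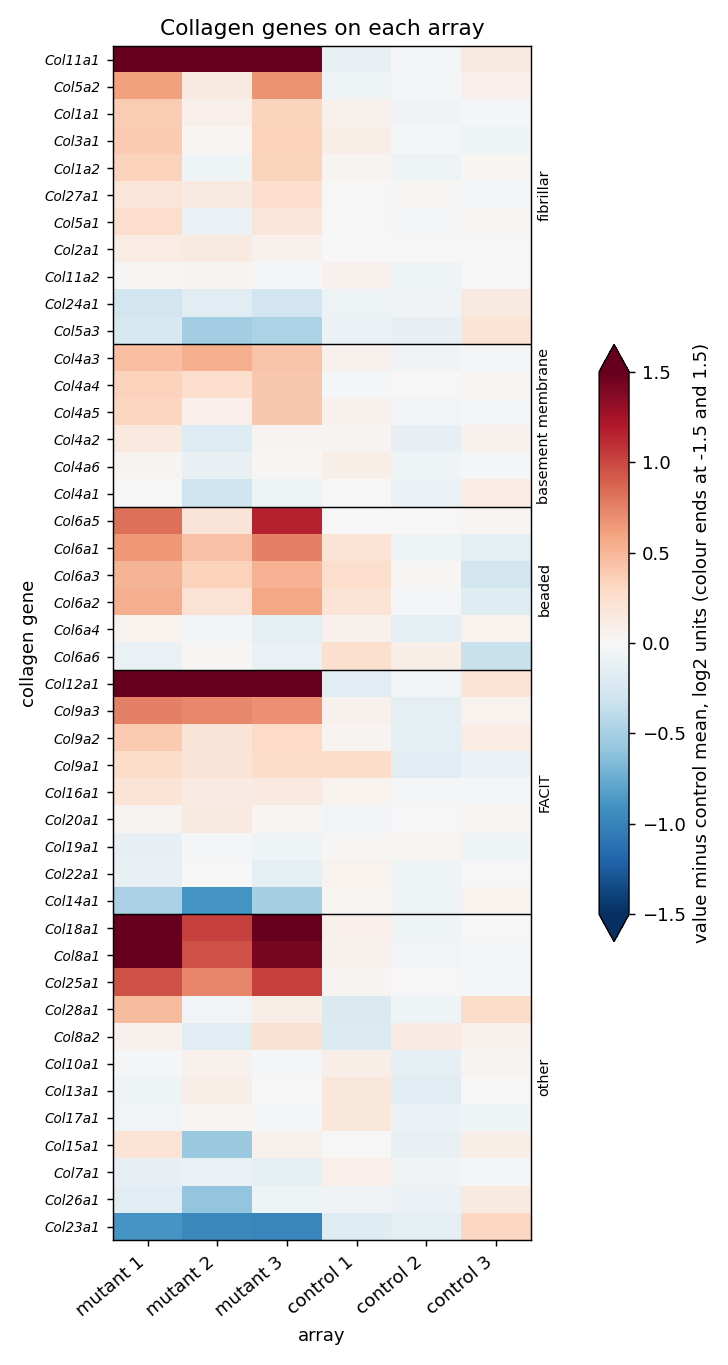
Value of each of the 44 collagen genes on each array minus its control mean, in log2 units (colour, ending at −1.5 and 1.5), with genes in rows by class and arrays in columns. Col11a1 and Col12a1 are dark red on all 3 mutant arrays, and the column of mutant 2 is lower than those of mutants 1 and 3 for most of the fibrillar and beaded genes.

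Of the 11 members that passed, 7 passed in all 19 alternatives. They were Col11a1, Col12a1, Col18a1, Col8a1, Col25a1, Col9a3 and Col23a1. Between same-numbered samples the differences were 3.02, 2.14 and 2.60 for Col11a1, 2.66, 2.11 and 2.24 for Col12a1 and 1.81, 1.10 and 1.58 for Col18a1, for samples 1, 2 and 3 in turn. In each of these 3 genes the difference was smallest between the muscle-rich samples. The same was seen for Col8a1 (1.44, 0.99 and 1.45) and Col25a1 (0.92, 0.74 and 1.04). It was not seen for Col9a3 (0.68, 0.85 and 0.64) or Col23a1 (−0.71, −0.84 and −1.29).

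RefSeq promoter windows were at hand for 35 of the 44 members, 38 windows in all, on GRCm38.p6. CACCT on either strand was found in 50% of these windows and in 51.9% of all 32851 windows of the table. The longer CACCTG, which contains CACCT, was found in 13.2% of the collagen windows and 20.2% of all windows. The 8 windows of members that passed covered 7 of those 11 genes, with none at hand for Col12a1, Col14a1, Col9a3 and Col4a3. Of these 8 windows, 5 held CACCT and 2 held CACCTG. Col18a1 has 2 windows, and its downstream start held 3 copies and its upstream start none.

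Enzymes and chaperones that modify and fold collagen chains in the endoplasmic reticulum formed a list of 21, of which 19 had a value here. Of these 5 rose (26.3%, against 5.74% of all genes), none fell (against 3.89% of all genes) and 14 did not pass, and the median difference was 0.31. P4ha3, a catalytic subunit of prolyl 4-hydroxylase, was 9.89, 9.03 and 10.03 in the mutant nerves and 7.55, 7.65 and 7.42 in the control nerves, a rise of 2.11 (SE 0.25, adjusted p = 0.00362). The shared subunit P4hb rose by 0.35, while the other catalytic subunits P4ha1 (−0.40, adjusted p = 0.174) and P4ha2 (0.31, adjusted p = 0.122) did not pass. P3h3 and P3h4, which act with lysyl hydroxylase, rose by 0.78 and 0.83, and the galactosyltransferase Colgalt2 by 0.78. Serpinh1, the collagen chaperone of the endoplasmic reticulum, differed by 0.12 (adjusted p = 0.569).

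Enzymes of procollagen cleavage and crosslinking changed in both directions. Of 14 measured genes of a list of 15, 5 rose (35.7%, against 5.74% of all genes), 2 fell (14.3%, against 3.89%) and 7 did not pass, with a median of 0.48. Bmp1, the proteinase that removes the C-terminal propeptide, was 12.04, 11.94 and 12.12 in the mutant nerves and 11.35, 11.26 and 11.30 in the control nerves, a rise of 0.73 (SE 0.083, adjusted p = 0.00303). Tll1, a proteinase of the same family, was 7.59, 7.64 and 7.67 in the mutant nerves and 9.51, 9.74 and 10.27 in the control nerves, and it fell by 2.21 on the log2 scale (SE 0.19, adjusted p = 0.00107). Its mutant values were flat and under the array medians. Lox, which starts covalent crosslinking of fibrils, was 10.80, 9.99 and 11.11 in the mutant nerves and 12.26, 12.09 and 12.62 in the control nerves, and it fell by 1.69 (SE 0.29, adjusted p = 0.0138). Its relative Loxl2 rose by 0.84, the N-propeptidase Adamts3 by 0.87, its relative Adamts14 by 0.52 (adjusted p = 0.0428) and the enhancer of C-propeptide cleavage Pcolce by 0.59.

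Among 12 measured collagen receptors of a list of 13, 3 rose (25.0%, against 5.74% of all genes) and none fell, with a median of 0.29. The integrin subunits Itga1 and Itga10, which bind collagens with the shared subunit Itgb1, rose by 1.24 (SE 0.13, adjusted p = 0.00233) and 1.20 (SE 0.12, adjusted p = 0.0019). Mrc2, an endocytic receptor that takes up collagen fragments, rose by 0.97 (adjusted p = 0.00312). Ddr1 and Ddr2, the collagen receptor tyrosine kinases, differed by 0.31 (adjusted p = 0.328) and 0.42 (adjusted p = 0.0945). Of 7 proteases that degrade collagens, 4 rose (57.1%, against 5.74% of all genes) and 3 did not pass, with a median of 0.70. The 4 that rose were Fap (0.89), Ctsk (0.84), Mmp14 (0.81) and Mmp2 (0.70). Mmp8 (−0.04), Mmp9 (−0.29) and Mmp13 (−0.15) did not pass, and both group means of each lay under the lowest array median.

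Of the rises named in these lists, 9 were lost without single arrays. Without mutant 1 the adjusted p was 0.162 for P4hb, 0.0792 for P3h3, 0.0963 for Colgalt2, 0.0951 for Adamts3, 0.0606 for Loxl2, 0.146 for Pcolce, 0.172 for Adamts14, 0.103 for Mmp2 and 0.107 for Ctsk. Without mutant 3 it was 0.157, 0.0771, 0.0921, 0.0981, 0.0649, 0.144, 0.17, 0.102 and 0.106 for the same genes in the same order. Without control 2, P4hb (0.0827), P3h3 (0.0576), Colgalt2 (0.0687), Adamts3 (0.0689), Pcolce (0.105), Adamts14 (0.123), Mmp2 (0.0616) and Ctsk (0.0804) did not pass either. Without control 1 that held for P4hb (0.066), Colgalt2 (0.0574), Adamts3 (0.0521) and Adamts14 (0.107), and without control 3 for P4hb (0.0881), P3h3 (0.0502), Adamts3 (0.0655), Pcolce (0.0922) and Ctsk (0.0658). Without the muscle-rich pair it held for P4hb (0.0944), Pcolce (0.0638), Adamts14 (0.0602), Mmp2 (0.0572) and Ctsk (0.0647). With sex as a covariate it held for P4hb (0.0661), Colgalt2 (0.0547) and Adamts14 (0.101). Muscle markers as a covariate gave 0.0684 for P4hb and 0.0546 for Adamts14. After arrays were centred on their medians, P4hb (0.0672), Pcolce (0.0508) and Adamts14 (0.0801) did not pass. A block on same-numbered samples ended the rise of P4hb alone among these genes (0.086), and with it Fkbp14 (0.54, adjusted p = 0.0361) and Tmem38b (−0.46, adjusted p = 0.0387) of the modification list passed.

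**Figure D4:**
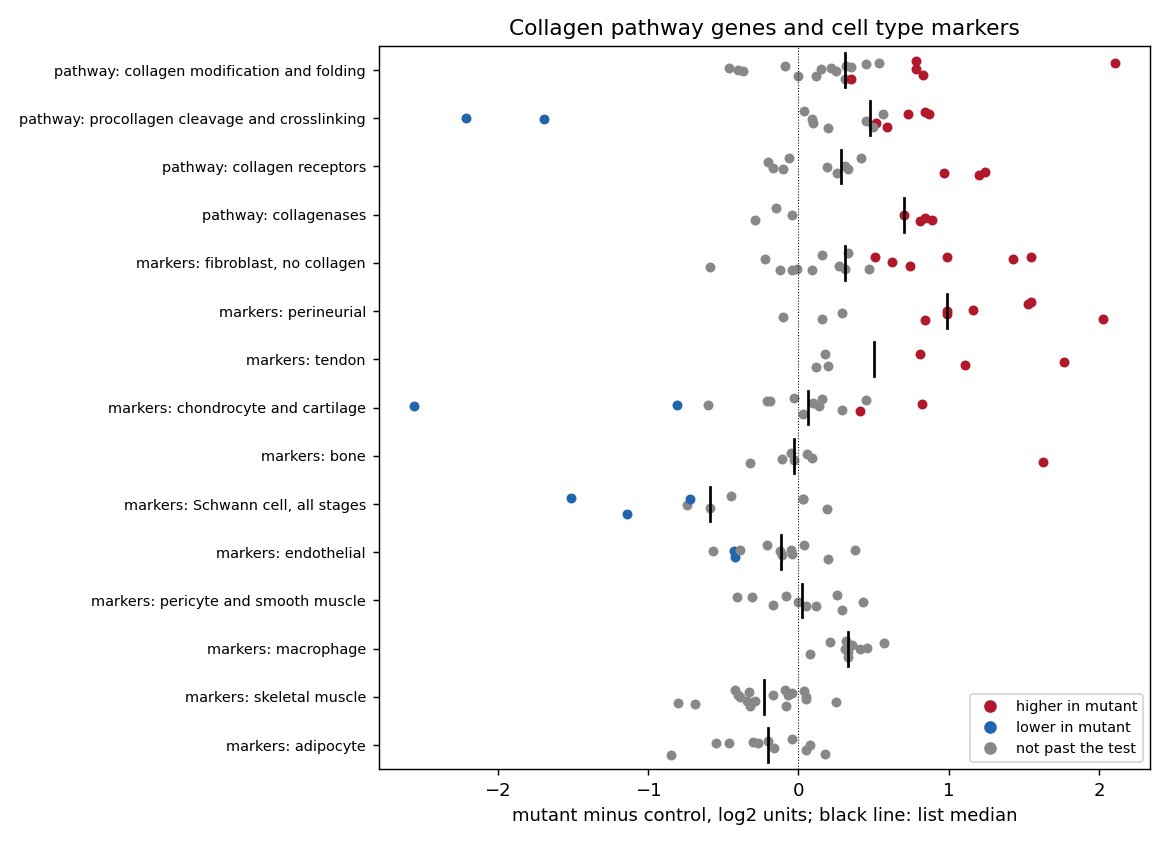
Difference between mutant and control nerves in log2 units (x axis) for genes of 4 collagen pathway lists and 11 marker lists, with 1 point per gene and a black line at each list median. Tll1 and Lox stand far left of the other crosslinking and cleavage enzymes, and the perineurial markers have the highest median, 0.99.

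Marker lists of the cells a nerve sample can hold are given beside the collagens, and their counts are to be read against the 5.74% of all genes that rose and the 3.89% that fell. Of 17 measured fibroblast markers other than collagens, 6 rose (35.3%) and none fell (median 0.31), with a summed level of 15.79 to 15.96 in the mutant nerves and 15.45 to 15.61 in the control nerves. With same-numbered samples blocked, Wif1 of this list rose (0.47, adjusted p = 0.035) and Ngfr, which Schwann cells also express, fell (−0.59, adjusted p = 0.0232). The count that fell was also 1 with either filter on low values, repeated quantile normalization, a trended robust prior or array weights. It was 1 as well with muscle or adipocyte markers as a covariate. Without mutant 1 or without mutant 3 the count of fibroblast markers that rose was 3, and without the muscle-rich pair Fbln1 (adjusted p = 0.0537) and Pdgfra (0.0521) did not pass.

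Of 10 perineurial markers 7 rose (70.0%) and none fell (median 0.99), with a summed level of 14.80 to 14.96 in the mutant nerves and 13.72 to 14.16 in the control nerves. The count was 4 without mutant 3, and without the muscle-rich pair Msln did not pass (adjusted p = 0.0717). Of 6 tendon markers 3 rose (50%; Tnmd by 1.77, Fmod by 1.11 and Thbs4 by 0.81), with a summed level of 13.18 to 13.45 in the mutant nerves and 12.39 to 12.56 in the control nerves. Scx, the transcription factor that defines tendon, lay under the array medians on every array and differed by 0.12 (adjusted p = 0.555). The part of these cell types in the collagen differences was not tested.

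Col11a1, the type IX chains and Col2a1 are best known from cartilage, so cartilage markers were read beside them. Of 14 measured, 2 rose (14.3%) and 2 fell (14.3%), with a median of 0.06, and their summed level was 11.57 to 11.70 in the mutant nerves and 11.76 to 12.09 in the control nerves. Cnmd, which encodes the cartilage protein chondromodulin, was 7.18, 7.33 and 6.91 in the mutant nerves and 9.42, 9.92 and 9.75 in the control nerves. It fell by 2.56 on the log2 scale, or 5.88-fold (SE 0.16, adjusted p = 0.000374), and passed in all 19 alternatives, with its mutant values under the array medians. The cartilage matrix gene Matn4 fell by 0.81 (adjusted p = 0.0028). Comp and Hapln1, also matrix genes, rose by 0.41 (adjusted p = 0.0233) and 0.82 (adjusted p = 0.0405) at values under the array medians.

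Both of those rises were lost without mutant 1 (0.123 for Comp and 0.1 for Hapln1), without control 2 (0.0669 and 0.115), without control 3 (0.063 and 0.0913) and without the muscle-rich pair (0.098 and 0.0752). Comp was also lost without mutant 3 (0.0741) and Hapln1 without control 1 (0.085). With sex as a covariate Comp did not pass (0.0675). Hapln1 did not pass with muscle markers (0.055) or adipocyte markers (0.0543) as a covariate, or with arrays centred on their medians (0.0522). With same-numbered samples blocked, Cytl1 of this list fell as well (−0.60, adjusted p = 0.0165). Acan, the main proteoglycan of cartilage, stood at 6.52, 6.62 and 6.63 in the mutant nerves and 6.39, 6.46 and 6.43 in the control nerves, under the array medians on all arrays. Of 7 bone markers only Alpl rose (1.63; 14.3%), and Ibsp lay between 5.52 and 5.76 on all 6 arrays.

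Of 9 Schwann cell markers 3 fell (33.3%; S100b, Erbb3 and Cryab) and none rose (median −0.59), with a summed level of 14.43 to 14.64 in the mutant nerves and 14.91 to 15.34 in the control nerves. The count was 1 without mutant 1 or without mutant 3 and 6 with adipocyte markers as a covariate. Erbb3 did not pass without the muscle-rich pair (adjusted p = 0.071). With same-numbered samples blocked, Sox10 (−0.74, adjusted p = 0.0136) and Ngfr (−0.59, adjusted p = 0.0232) passed as well. Not all Schwann cell markers were lower. Foxd3 (0.03), Cdh19 (0.03) and Dhh (0.19) did not pass, and their groups overlapped. Of 12 endothelial markers Vwf (−0.43) and Cldn5 (−0.42) fell (16.7%) and none rose, with a median of −0.11. Vwf was lost without any single array (adjusted p 0.0576 to 0.133), with the block (0.0592) and without the muscle-rich pair (0.116). Cldn5 was lost without any single array but control 2 (adjusted p 0.0723 to 0.129), with the block (0.0503) and without the muscle-rich pair (0.0842). It was also lost with sex (0.0602) or muscle markers (0.0512) as a covariate.

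None of 10 macrophage markers passed in limma, with 5 at an unadjusted p under 0.05, but all 10 differences were above 0 (median 0.33, against −0.02 over all genes). Their summed level was 13.04 to 13.40 in the mutant nerves and 12.66 to 13.11 in the control nerves, and 6 passed with array weights, 1 without mutant 2, 2 without control 1 and 1 with sex as a covariate. None of 10 pericyte and smooth muscle markers passed either, with 3 at an unadjusted p under 0.05 and a median of 0.02. The part of macrophages in the collagen differences was not tested.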

How the data were processed

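RNA of 6 sciatic nerves was hybridised to 1-colour Affymetrix arrays. The authors deposited log2 values, 1 per probe set and array. The log base was read from the values, and how background, normalization and summary were done is not stated in the labels. The submitters' processing notes name limma, with no version or role. Of 21225 probe sets, 20239 had 1 symbol, 0 had several and 986 were unnamed here and left out. All 44 collagens are named by the platform annotation, checked through Entrez numbers. No coordinates come from the array, and promoter windows are those of RefSeq on GRCm38.p6.

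Groups follow the genotype in the labels. The main model was lmFit and eBayes of limma 3.58.1 (R 4.3.3) over all named genes, mutant minus control, two-sided, without trend and with Benjamini-Hochberg adjustment, and only collagen and listed rows are reported. The fit was tested on simulated data in which far fewer genes were shifted than passed here. It recovered 22% of shifts of 0.5 log2 units, 73% of shifts of 1 and 94.7% of shifts of 2. Small differences that did not pass are therefore not shown to be absent. SE is the moderated standard error. A list score is a mean log2 value, and a summed level is the log2 of summed linear values. Figures used matplotlib 3.10.9.

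Members, classes, lists and alternatives were chosen with earlier results of these data known, and are described by counts and medians without a set test. Every member is accounted for, with full values for those that passed and partner chains side by side. In a pathway list, up to 6 members that passed with the largest differences are named, and further members were named after their values were seen. Marker lists of skin (7 keratinocyte and 6 hair follicle and melanocyte genes) had 0 higher and 1 lower. None of 11 adipocyte or 18 muscle markers passed in limma (0 at an unadjusted p under 0.05). Adipocyte list scores spread widely among controls, at 12.19 for control 1, 11.33 for control 2 and 10.01 for control 3. Scores of mutants 1 to 3 were 10.88, 11.27 and 10.7. With this spread, the lack of a call does not show equal fat content. The planned share of triple helix per protein was not computed, because no protein table was used here. The labels give both groups numbers 1 to 3. The correlation of deviations from the group means within the 3 numbered pairs was 0.36, 0.574 and 0.295, each over 0.1, so a block on the number was run as an alternative. That pairing comes from the data and not from a statement in the labels, and muscle content also follows the number.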

Additional observations from a re-analysis of the deposited data

How the results depend on the processing

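Alternatives were 2 filters on low values, 2 rescalings, 16 added to linear values, a trended robust prior, array weights, a block on the replicate number, every probe set, covariates for sex (read from Xist), muscle markers and adipocyte markers, leaving out the muscle-rich pair (mutant 2 and control 2), and leaving out each array in turn, 19 in all. None of the 11 members that passed changed sign in any of them, and 7 passed in all. Of the 33 that did not pass, 24 passed in none and 10 changed sign in at least 1. The number of collagens that rose was 17 with array weights, which added Col1a1, Col3a1, Col4a5, Col5a2, Col6a2, Col6a3, Col6a5 and Col9a2, and which also moved the count over all genes to 2411 higher and 1244 lower, against 1161 and 787. Leaving out 1 array gave 6 to 11 collagens higher and 1 to 2 lower, a count of 1 being Col23a1 without Col14a1. With sex as a covariate 1 fell, and with adipocyte markers 3 fell, the third being Col5a3 (adjusted p = 0.0468). The family median was 0.23 without the lowest 50% of genes, where 36 members were left, and 0.09 to 0.20 otherwise. With that filter the median over all genes left was 0.048. Zeb2 without 1 array ran from −0.97 to −0.74, and was not past the test without mutant 1 (−0.92). Over all genes, 504 rose and 392 fell without mutant 1, 502 and 408 without mutant 3, 742 rose without control 2, 1193 fell with adipocyte markers and 453 fell without the muscle-rich pair. Genes that rose ran from 2 to 10 in the list of modification and folding, 1 to 8 in that of cleavage and crosslinking, 3 to 5 among receptors, 2 to 4 among collagenases, 3 to 10 among fibroblast markers and 4 to 7 among perineurial markers. With the replicate number as a block, 8 collagens rose and 2 fell, and of the collagen calls that of Col4a4 alone changed (adjusted p = 0.0948). The cause of these shifts was not tested. Low values near array background limit what can be seen in 7 members.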
